A study of Mus musculus with 12 samples.

Results

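The genes that place sulfate on colonic mucins, and those that supply the sulfate, were described in the proximal colon of 12-week-old mice. The 9 members were taken by their symbols from a table of 55376 genes: the sulfotransferases Chst4, Chst5 and Gal3st2, the donor synthases Papss1 and Papss2, the Golgi donor transporters Slc35b2 and Slc35b3, and the sulfate carriers Slc26a2 and Slc26a1. All 9 had counts, and 8 passed the filter on low counts, as did 15952 genes of the table. Total RNA was sequenced from 6 EPR fl/fl and 6 EPR cKO mice, with 1 library per animal. Both groups carry EPR alleles flanked by loxP sites, the EPR fl/fl mice (genotype wt in the labels) are the controls, and the EPR cKO mice (genotype ko) also carry the CDX2P-NLS Cre transgene, in which a human CDX2 promoter drives Cre in epithelial cells of the colon, cecum and end of the ileum and so removes the promoter and exon 1 of EPR there. EPR is a long noncoding RNA of epithelial tissues, listed in the table as Smim31. The proximal end of the colon was frozen whole, so each library mixes epithelium with muscle, stroma and immune cells, and in such tissue fewer cells of a type and less RNA per cell cannot be told apart.

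Sulfate enters epithelial cells through anion exchangers and is joined to ATP by the PAPS synthases to give PAPS, the activated sulfate that all sulfotransferases use. PAPS is carried into the Golgi, where sulfotransferases transfer its sulfate to sugars of the O-glycans that cover mucins such as Muc2, the gel-forming mucin of goblet cells. Chst4 and Chst5 act on N-acetylglucosamine and Gal3st2 acts on galactose. Sulfated glycans make colonic mucus acidic and shield it from bacterial degradation, and Chst4 is also known from high endothelial venules, where it helps to make ligands for L-selectin.

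The 250 bases upstream of the RefSeq starts of Chst4 and Gal3st2 are printed because these were the members that fell in EPR cKO, and that of Gal3st2c because this neighbouring copy of Gal3st2 was not called. The sequences are those of RefSeq on GRCm38.p6, which had an entry for 8 of the 9 members (not for Slc26a2). They lie at chr8:110039335-110039584 on the minus strand for Chst4, at chr1:93861094-93861343 on the plus strand for Gal3st2 and at chr1:93990255-93990504 on the plus strand for Gal3st2c. They are written 5′ to 3′ in the direction of transcription, and capitals mark matches to the motifs named after them.
Chst4: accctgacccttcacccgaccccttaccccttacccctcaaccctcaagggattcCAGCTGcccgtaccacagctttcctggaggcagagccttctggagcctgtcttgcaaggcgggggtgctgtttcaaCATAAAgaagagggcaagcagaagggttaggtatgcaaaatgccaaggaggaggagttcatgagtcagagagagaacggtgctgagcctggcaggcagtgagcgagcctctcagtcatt
Gal3st2: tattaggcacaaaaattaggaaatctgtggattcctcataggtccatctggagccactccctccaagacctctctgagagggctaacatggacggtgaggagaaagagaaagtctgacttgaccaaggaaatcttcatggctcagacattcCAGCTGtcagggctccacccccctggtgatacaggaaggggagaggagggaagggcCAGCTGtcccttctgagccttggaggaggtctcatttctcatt
Gal3st2c: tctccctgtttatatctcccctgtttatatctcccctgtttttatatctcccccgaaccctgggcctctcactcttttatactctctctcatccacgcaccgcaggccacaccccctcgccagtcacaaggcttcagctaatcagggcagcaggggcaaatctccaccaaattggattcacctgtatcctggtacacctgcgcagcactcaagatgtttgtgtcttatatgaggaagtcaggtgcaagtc

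The motifs were searched on both strands, and no matches overlapped. They were CAGCTG, a form of the E box that basic helix-loop-helix factors such as Atoh1 bind (it reads the same on both strands), TTTATG as the core of CDX sites, CCGGAA as an ETS core and AGATAA as a GATA core. The Chst4 window held CAGCTG once, 195 bases before its RefSeq start, and TTTATG once on the opposite strand, 119 bases before that start. The gene model of Chst4 that was counted begins further upstream, at 110039740. The printed Chst4 window thus lies inside the span of that model and not upstream of it. Gal3st2 had CAGCTG at 99 and at 43 bases before its start, and Gal3st2c had no match. Among all 32851 promoter windows of the same length, 13% held CAGCTG, 10.8% held TTTATG, 12% held CCGGAA and 9.99% held AGATAA. Among the other members, Chst5 matched the ETS core, Papss2 and Slc26a1 the GATA core and Slc35b3 the CDX core, each once. The windows of Chst5, Slc35b2 and Slc26a1 also overlap the gene models that were counted. The windows of Gal3st2 and Gal3st2c were identical at 45.8% of aligned positions, close to the 45.6% of Gal3st2 and the unrelated Chst4.

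Libraries held 13093904 to 33211041 counts. EPR was measured at 21.2, 43.3 and 58.0 CPM (counts scaled to a common library size by TMM, the trimmed mean of M values; lowest, median and highest of 6 libraries) in EPR fl/fl and at 0, 0.0896 and 0.423 CPM in EPR cKO, with a log2 fold change of -8.09 (SE 0.47, edgeR adjusted p = 1.61e-06). The makeup of the tissue was measured as well. The mean log2 CPM of 8 epithelial markers minus that of 8 smooth muscle markers was 0.874 to 1.55 in EPR fl/fl. In EPR cKO it was -0.119 in replicate 1 and 1.99 to 3.55 in the other 5. The difference was 1.20 (two-sided exact permutation p = 0.0628). Without EPR cKO 1 it was 1.70 (exact permutation p = 0.00216). Leaving out that library sets the groups fully apart, where the test gives its smallest p, so this p is no separate support. Leaving out any other single library gave exact permutation p = 0.0671 to 0.121. EPR cKO 1 was thus the one EPR cKO library below the controls in this score. The outlier test described in the closing sections did not flag it. Results are given with and without it where that matters. Of the 8 epithelial markers 0 passed the test, with estimates all higher in EPR cKO, a median of 0.23 and 3 at an unadjusted p under 0.05. Of the 8 smooth muscle markers 0 passed, with estimates all lower, a median of -0.55 and 0 at an unadjusted p under 0.05.

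Chst4 and Gal3st2, the 2 member sulfotransferases with counts high enough to test, were both lower in EPR cKO. The call of Gal3st2 was lost with a covariate for tissue makeup (edgeR adjusted p = 0.0626) or with its near copies summed (edgeR adjusted p = 0.961). The summed counts are mostly those of Gal3st2c, so the sum cannot decide on Gal3st2 alone. By contrast, no gene of PAPS synthesis, PAPS transport or sulfate uptake passed the test in either direction. Of the 8 members tested, 2 were lower and 0 higher at an adjusted p under 0.05, against 1.57% of all tested genes called lower and 0.884% called higher. At an unadjusted p under 0.05, 1 member (Slc26a2) was higher, and DESeq2 and limma-voom called 0 higher as well. The EPR cKO libraries lay wholly below the EPR fl/fl libraries for these 2 and wholly above for 0, against 1.47% and 1% of all tested genes. None of the 8 passed the stricter thresholds of the study (an adjusted p under 0.001 together with a minimum fold change), which 0.169% of tested genes passed as lower. The median log2 fold change of the members was -0.01 and that of all tested genes 0.02.

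**Figure D1:**
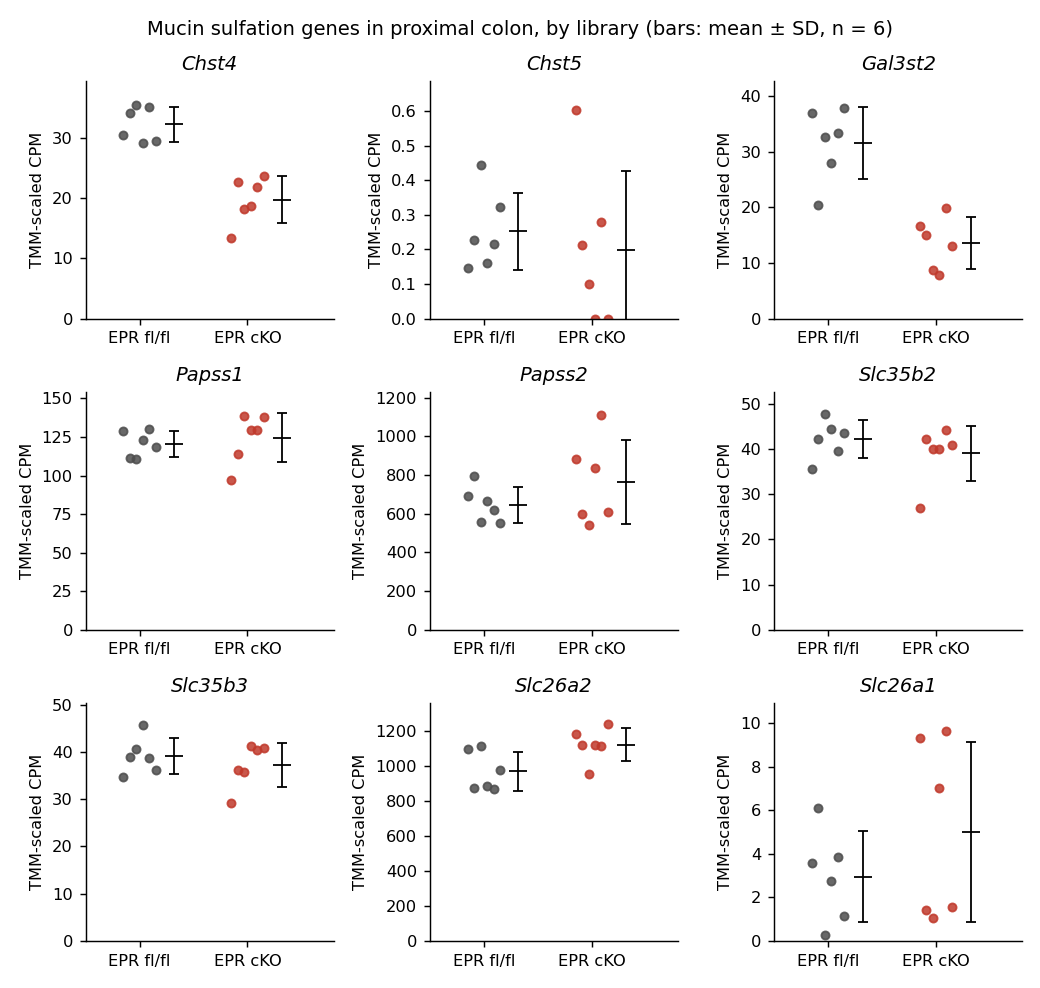
TMM-scaled CPM of the 9 members in each library, with EPR fl/fl in grey and EPR cKO in red, 1 point per animal and the mean ± SD (n = 6) beside the points (for Chst5 in EPR cKO the lower bar ends at the axis). Chst4 and Gal3st2 show 2 groups that do not overlap, with EPR cKO at 13.4 to 23.7 and 7.80 to 19.9 CPM, and the points of the other 7 genes overlap.

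Chst4, a sulfotransferase of N-acetylglucosamine on chromosome 8 (mm10, chr8:110029153-110039740, minus strand, 3 exon blocks), was measured at 29.2, 32.3 and 35.4 CPM (lowest, median and highest) in EPR fl/fl. In EPR cKO the corresponding values were 13.4, 20.3 and 23.7 CPM. The highest EPR cKO library was below the lowest control, and the lowest of all was EPR cKO 1. The mean fell from 32.3 ± 2.90 to 19.8 ± 3.84 CPM (SD, n = 6), which is 38.8% lower, with a log2 fold change of -0.71 (SE 0.13, 95% interval -0.98 to -0.43, edgeR adjusted p = 0.00997). Without EPR cKO 1 it was -0.63 (edgeR adjusted p = 0.00151). In that model the score of tissue makeup separated the groups, and 14.4% of all tested genes were called lower. Genotype and makeup cannot be told apart there. None of its 50-base stretches occurs in the transcripts of another gene, so that its counts are not shared with a copy.

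Chst4 was set against Muc2 and against the epithelial markers through ratios within a library, which were chosen after the values had been seen and are given as a description with no test. The log2 ratio of Chst4 to Muc2 was -7.85 ± 0.61 in the controls and -6.47 ± 0.53 in EPR cKO (SD, n = 6), with overlapping groups. Muc2 was measured at 4072, 7521 and 14561 CPM in EPR fl/fl and at 1071, 1869 and 2023 CPM in EPR cKO, a log2 fold change of -2.19 (SE 0.27, edgeR adjusted p = 0.000741). The log2 ratio of Chst4 to the sum of the 8 epithelial markers was -8.07 ± 0.28 in the controls and -9.12 ± 0.18 in EPR cKO (SD, n = 6), with groups apart. The goblet cell markers were also lower: 9 of 15 were called lower (against 1.57% of all tested genes), 15 of 15 estimates were lower, the median log2 fold change was -0.80, and their summed level was 13723 to 28892 CPM in the controls and 6444 to 8820 CPM in EPR cKO. The study had already reported several of these markers, such as Muc2, Clca1 and Fcgbp, as reduced in the same data. Their fall is thus no separate evidence about Chst4. Tff3, a trefoil peptide secreted with mucin, had a log2 fold change of -0.53 (SE 0.10, edgeR adjusted p = 0.0170). It lost the call without EPR fl/fl 4 (-0.51) or EPR cKO 3 (-0.50). In purified crypts, by qRT-PCR, the study found Tff3 and C1galt1 at similar levels in both genotypes. From this and electron microscopy it proposes that goblet cells remain in EPR cKO. The lower Tff3 value here is from whole tissue and differs from that result. The part of goblet cell number in the fall of Chst4 was not tested.

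Among the listed markers of high endothelial venules, another known source of Chst4, Glycam1, Madcam1 and Fut7 were at or near 0 and Ccl21a was not. Glycam1 had 0 counts in all 12 libraries, which allows up to 0.0903 to 0.229 CPM per library (3 counts, counting error only). Madcam1 was at 0.192 CPM in the controls and 0.190 CPM in EPR cKO, and Fut7 at 0.104 and 0.0612 CPM. Ccl21a, which lymphatic vessels also express, was the one marker of this list with counts to test, at 14.1 and 9.21 CPM (edgeR adjusted p = 0.379). Which cells the Chst4 reads came from was not tested.

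Gal3st2, a sulfotransferase of galactose on chromosome 1 (chr1:93861346-93876494, plus strand, 4 exon blocks), had the largest fall among the members tested. The lowest, median and highest values were 20.4, 33.01 and 37.8 CPM in EPR fl/fl. They were 7.80, 14.0 and 19.9 CPM in EPR cKO, so that the groups were separated, though narrowly, between control replicate 2 and EPR cKO 5. The mean went from 31.5 ± 6.48 to 13.5 ± 4.68 CPM (SD, n = 6), which is 57.1% lower, with a log2 fold change of -1.22 (SE 0.23, 95% interval -1.70 to -0.73, edgeR adjusted p = 0.0138). Without EPR cKO 1 the change was -1.30 (edgeR adjusted p = 0.00385), with the limit on tissue makeup given for Chst4. The same ratios of Gal3st2, again with no test, were -8.13 and -9.72 on the log2 scale against the epithelial markers, with groups apart, and -7.91 and -7.07 against Muc2, with groups that overlapped.

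Gal3st2 lies beside 2 near copies, Gal3st2b and Gal3st2c, and its counts are uncertain for that reason. Of the distinct 50-base stretches in its transcripts, 68.8% also occur in Gal3st2b, 28.7% in Gal3st2c and 71.2% in at least 1 other gene. How reads with several alignments were counted is not stated. Gal3st2b was barely detected, at 1.20 ± 0.81 and 0.886 ± 0.875 CPM (SD, n = 6), and only 10.9% of the stretches of Gal3st2c are shared. Gal3st2c was measured at 11.9, 123 and 173 CPM in EPR fl/fl and at 3.95, 73.1 and 267 CPM in EPR cKO (lowest, median and highest), with a log2 fold change of 0.17 (SE 0.80, edgeR adjusted p = 0.925). The copy with more reads thus spread 67.6 times within EPR cKO, against 2.56 times for Gal3st2, and its groups overlapped throughout. With the counts of the 3 genes summed, most of which are those of Gal3st2c, the log2 fold change was -0.07 (SE 0.62, edgeR adjusted p = 0.961), so that the call is for the reads assigned to Gal3st2 alone.

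The makeup of the tissue was also entered as a covariate. With it Chst4 was at -0.93 (SE 0.12, edgeR adjusted p = 0.00133), and Gal3st2 was at -1.12 (SE 0.28, edgeR adjusted p = 0.0626), no longer past the threshold. With the covariate and without EPR cKO 1 the values were -0.68 for Chst4 (edgeR adjusted p = 0.428) and -1.45 for Gal3st2 (edgeR adjusted p = 0.565). In that last model the score separated the groups, and 4 genes in the whole table passed, so that genotype and makeup cannot be told apart there.

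**Figure D2:**
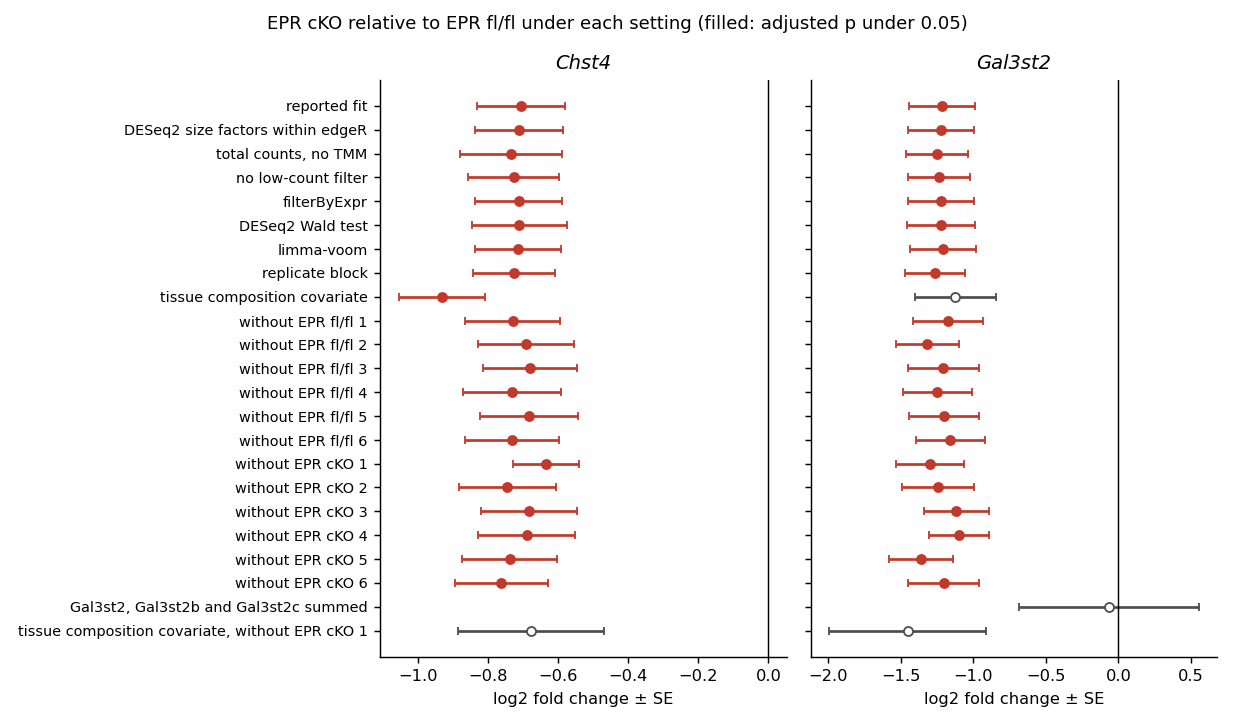
Log2 fold change of Chst4 and Gal3st2 with its SE under the reported model and each alternative, with filled points for an adjusted p under 0.05. All points lie below 0, Chst4 between -0.93 and -0.63, and the open points are the covariate model without EPR cKO 1 for both genes and, for Gal3st2, also the covariate model at -1.12 and the summed copies at -0.07.

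Chst5, another sulfotransferase of N-acetylglucosamine (chr8:111889136-111910447, minus strand), was close to the limit of detection in both groups. Its counts were 2 to 14 per library in the controls and 0 to 11 in EPR cKO, with 0 in EPR cKO 4 and 6, where up to 0.135 and 0.162 CPM remain possible. The lowest, median and highest values were 0.146, 0.221 and 0.443 CPM in the controls and 0, 0.156 and 0.604 CPM in EPR cKO. It did not pass the filter, and a difference was not detectable at this depth (log2 fold change -0.40, SE 0.64, edgeR adjusted p = 0.800 with no filter). The log2 ratio of Chst4 to Chst5 was 6.95 ± 0.49 in the controls against 7.32 ± 2.10 in the EPR cKO mice (SD, n = 6, exact permutation p = 0.736). The ratios of 9.71 and 9.81 in EPR cKO 4 and 6 are set by the prior count of 0.5, and the difference of 0.38 turned to -0.15 with a prior count of 2, to -0.10 without EPR cKO 4 and to -0.12 without EPR cKO 6.

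Papss2, one of the synthases of PAPS (chr19:32595790-32667187, plus strand, 14 exon blocks), was measured at 554, 641 and 795 CPM in EPR fl/fl and at 543, 723 and 1109 CPM in EPR cKO. Its values were more spread in EPR cKO, where 3 libraries (1, 4 and 5) lay above the highest control and 1 lay below the lowest. The log2 fold change was 0.24 (SE 0.17, 95% interval -0.13 to 0.61, edgeR adjusted p = 0.469). Papss1, the second synthase (chr3:131564768-131643671, plus strand, 15 exon blocks), ranged from 111 to 130 CPM in EPR fl/fl and from 97.3 to 139 CPM in EPR cKO, with medians of 121 and 130. Its log2 fold change was 0.05 (SE 0.09, 95% interval -0.14 to 0.24, edgeR adjusted p = 0.785). The log2 ratio of Papss2 to Papss1 was 2.41 ± 0.22 and 2.58 ± 0.50 (SD, n = 6, exact permutation p = 0.478).

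The Golgi transporters of PAPS were at similar levels to each other. Slc35b2 (chr17:45563874-45567671, plus strand) was measured at 35.5, 42.9 and 47.6 CPM in EPR fl/fl and at 27.0, 40.4 and 44.3 CPM in EPR cKO, where EPR cKO 1 was the one library below the controls. Its log2 fold change was -0.11 (SE 0.11, 95% interval -0.35 to 0.13, edgeR adjusted p = 0.608). Slc35b3 (chr13:38932136-38960875, minus strand) was at 34.8, 38.9 and 45.7 CPM in EPR fl/fl and at 29.3, 38.2 and 41.2 CPM in EPR cKO. Its log2 fold change was -0.07 (SE 0.09, 95% interval -0.28 to 0.13, edgeR adjusted p = 0.686), and 11.2% of its exon bases lie under an antisense gene, 5033403F01Rik. The log2 ratio of Slc35b3 to Slc35b2 was -0.10 ± 0.12 and -0.06 ± 0.13 (SD, n = 6, exact permutation p = 0.537). For these 2 transporters and for both synthases the intervals of the reported fit leave out a change of the size estimated for Chst4. With the covariate for tissue makeup Slc35b2 was at -0.32 (SE 0.10, edgeR adjusted p = 0.133). Slc35b3 was then at -0.24 (SE 0.08, edgeR adjusted p = 0.168).

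Slc26a2, the sulfate and anion exchanger that colonocytes are known to express strongly (chr18:61192919-61211612, minus strand), was measured at 869, 928 and 1113 CPM in EPR fl/fl and at 953, 1119 and 1236 CPM in EPR cKO. The groups overlapped, although 5 of 6 EPR cKO libraries were above the highest control. The log2 fold change was 0.21 (SE 0.09, 95% interval 0.01 to 0.41), and it did not pass the correction over all genes (edgeR adjusted p = 0.252). Slc26a1, a second sulfate exchanger (chr5:108669878-108675569, minus strand), was scarce and varied most among the members tested, at 0.253, 3.17 and 6.09 CPM in EPR fl/fl and at 1.05, 4.29 and 9.64 CPM in EPR cKO. EPR cKO 1, 4 and 5 were at 7.04 to 9.64 CPM and the other 3 at 1.05 to 1.54 CPM, so that no library lay near the group mean. The log2 fold change was 0.77 with an interval from -0.73 to 2.27 (SE 0.69, edgeR adjusted p = 0.568). The log2 ratio of Slc26a1 to Slc26a2 did not separate the groups either (exact permutation p = 0.626), and p-values over the 4 planned pairs of members were all 0.736 after adjustment.

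**Figure D3:**
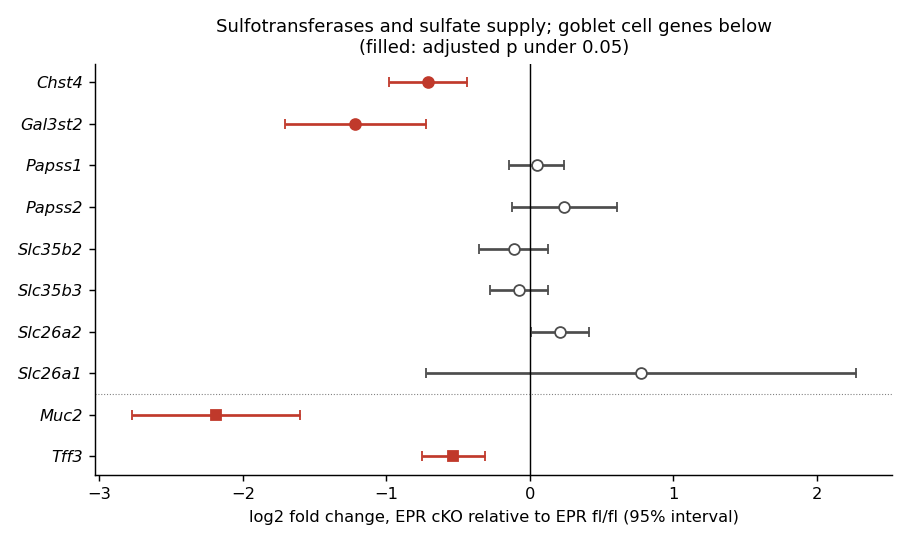
Log2 fold change in EPR cKO relative to EPR fl/fl with its 95% interval for the 8 members tested (circles) and for Muc2 and Tff3 (squares), filled where the adjusted p was under 0.05. Chst4 at -0.71 and Gal3st2 at -1.22 are the members whose intervals lie wholly below 0, and the widest interval is that of Slc26a1.

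Per kilobase of summed exon length, the synthases and Slc26a2 were far above the sulfotransferases, and the Golgi transporters were level with Chst4. The mean in EPR fl/fl was 174 CPM per kilobase for Papss2, 118 for Slc26a2 and 41.0 for Papss1, and the ranges of these neighbours did not overlap. Next came Slc35b3 at 17.1, Slc35b2 at 15.01, Chst4 at 14.3 and Gal3st2 at 11.1 CPM per kilobase, each overlapping the next. Slc26a1 at 0.733 and Chst5 at 0.116 CPM per kilobase were lowest and overlapped each other. The order was the same in EPR cKO, where the ranges of Papss2 (146 to 298) and Slc26a2 (117 to 151) also overlapped.

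Slc26a1 and Papss2 varied together from library to library, along with Gal3st2c, a pattern noticed after the values had been seen. The pairs were chosen from these same values, so the correlations are given as a description with no test. The pattern may not be particular to these genes. Slc26a3, for which no correlation was computed, was at 608, 475 and 599 CPM in EPR cKO 1, 4 and 5. In EPR cKO 2, 3 and 6 it was at 350, 252 and 370 CPM. Over the 12 libraries the log2 CPM of Slc26a1 and Papss2 had a Pearson r of 0.867 and a Spearman rho of 0.958. Without the 2 libraries farthest from the median of Slc26a1, r was 0.953. Within EPR fl/fl r was 0.823 and within EPR cKO 0.960. For Slc26a1 and Gal3st2c r was 0.849 and rho 0.867, with r = 0.825 without the 2 farthest libraries. Within the groups r was 0.989 for the controls and 0.924 for EPR cKO. For Papss2 and Gal3st2c r was 0.766 and rho 0.874, r without the 2 farthest was 0.740, and within the groups r was 0.792 in the controls and 0.900 in EPR cKO. The libraries highest for Slc26a1, EPR cKO 1 and 5, had the lowest and the highest epithelium to muscle score, -0.119 and 3.55. The part of this score in the pattern was not tested, and the labels give no position finer than the proximal colon for the piece taken from each mouse.

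**Figure D4:**
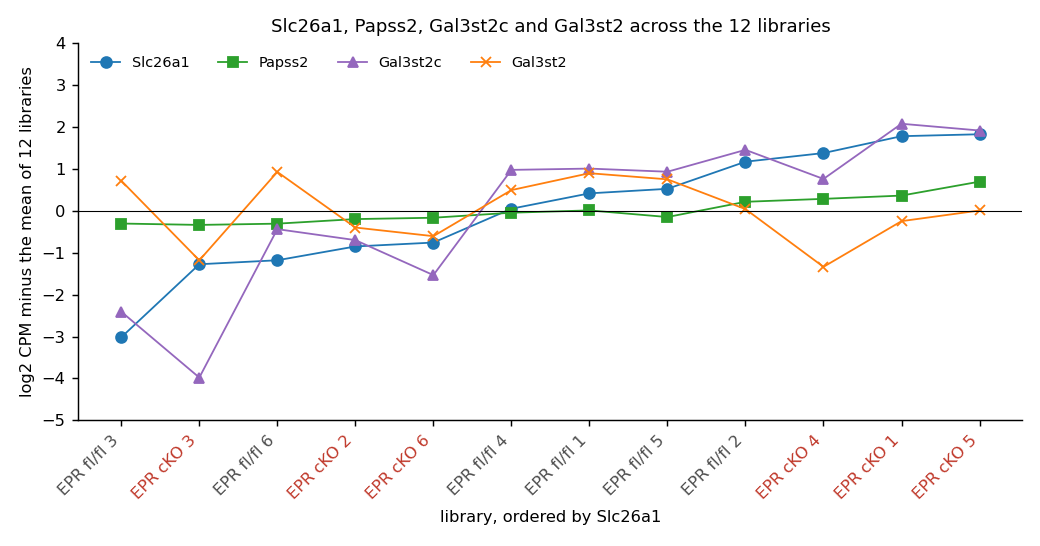
Log2 CPM of Slc26a1, Papss2, Gal3st2c and Gal3st2 minus each gene's mean over the 12 libraries, with libraries ordered by Slc26a1 and their names in grey (EPR fl/fl) or red (EPR cKO). Slc26a1 and Gal3st2c climb together from the left to EPR cKO 1 and 5, Papss2 climbs with a smaller span, and Gal3st2 does not follow them.

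The tested genes most like Chst4 over the 12 libraries, after subtraction of each gene's mean, were Slc50a1, a sugar transporter, Kdelr3, a receptor that returns proteins to the endoplasmic reticulum, and P2rx4, an ATP-gated channel. Their root mean square differences from Chst4 were 0.145, 0.154 and 0.161 on the log2 scale, against a spread of 0.421 for Chst4 itself. For Gal3st2 the most alike were Ttyh1, Zfpm1 and Gm14097, at 0.353, 0.357 and 0.385 against a spread of 0.750, so that Gal3st2 had no profile as near as those of Chst4.

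The wider sulfation pathway was read from 6 lists of 81 genes, of which 79 were in the table and 53 were tested. Estimates were lower in EPR cKO for 30 and higher for 23, and 1 was called lower and 0 higher, against the 1.57% and 0.884% given above. At an unadjusted p under 0.05 these were 6 lower and 9 higher, and DESeq2 called 2 lower and 4 higher. The one call was Arsg, a lysosomal arylsulfatase that takes sulfate off heparan sulfate, at 7.74, 8.73 and 12.6 CPM in EPR fl/fl and at 4.62, 5.81 and 7.31 CPM in EPR cKO (log2 fold change -0.67, SE 0.15, edgeR adjusted p = 0.0344). Its groups did not overlap, but it kept the call only without EPR fl/fl 1 or 6 or EPR cKO 1 or 5, and lost it without each of the other 8 libraries, at -0.71 to -0.57. It was the 1 called gene of 13 tested sulfatases and activators, whose median was -0.11.

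Of the other sulfotransferases of N-acetylglucosamine, N-acetylgalactosamine and galactose, 0 of 11 passed the test, with a median of -0.28, and 4 were lower and 1 higher without EPR cKO 1. Gal3st1, which sulfates galactose of glycolipids to make sulfatide, was at 23.2 to 32.5 CPM in EPR fl/fl and at 32.6 to 44.6 CPM in EPR cKO, so that the groups were apart in the direction opposite to Gal3st2, without passing the correction (log2 fold change 0.38, SE 0.11, edgeR adjusted p = 0.0866). Chst1 had a log2 fold change of -0.60 (edgeR adjusted p = 0.387), and of -1.08 without EPR cKO 1 (edgeR adjusted p = 0.00980). Among 8 heparan sulfate sulfotransferases 0 passed (median 0.01), and the smallest adjusted p-values were those of Hs3st1 at 0.40 (edgeR adjusted p = 0.239) and Hs6st1 at 0.11 (edgeR adjusted p = 0.445).

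Among 8 tested sulfotransferases of proteins and small molecules 0 passed, with a median of -0.15. Sult2b1, which sulfates cholesterol and other sterols, had a log2 fold change of 0.61 (edgeR adjusted p = 0.0975) and Sult1b1, a phenol and thyroid hormone sulfotransferase, 0.39 (edgeR adjusted p = 0.102). Of 4 other carriers able to take sulfate 0 passed, with a median of -0.04: Slc26a3, the chloride and bicarbonate exchanger of the colonocyte surface, was at 281 ± 74.5 and 442 ± 144 CPM (SD, n = 6, edgeR adjusted p = 0.160), and Slc13a1, a sodium and sulfate cotransporter, had a log2 fold change of -0.20 (edgeR adjusted p = 0.584). Of 9 genes that make sulfate from cysteine and sulfide or remove the spent donor 0 passed, with a median of 0.20. The sulfide-oxidising enzymes of mitochondria Ethe1 and Sqor had log2 fold changes of 0.48 (edgeR adjusted p = 0.0786) and 0.36 (edgeR adjusted p = 0.163).

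These counts moved with EPR cKO 1. Without that library 11 of the wider genes were called lower and 6 higher, while over all tested genes the shares rose to 14.4% lower and 7.44% higher. The members called were then the same in number, 2 lower and 0 higher. The 11 lower genes were named after their values were seen, apart from Chst1 and Arsg. They were the chain sulfotransferases Chst15 (log2 fold change -0.63), Chst12 (-0.997), Chst1 (-1.08) and Ust (-1.12), the heparan sulfate sulfotransferases Ndst3 (-1.09) and Ndst4 (-1.84), the tyrosine sulfotransferase Tpst1 (-0.92), the cysteine dioxygenase Cdo1 (-1.19) and the sulfatases Sulf1 (-1.04), Arsg (-0.68) and Arsk (-0.40). The 6 higher genes were Sult2b1 (0.62), Ethe1 (0.53), Gal3st1 (0.41), Sqor (0.39), Sult1b1 (0.38) and Tst (0.33). Summed fibroblast markers were at 903, 1333 and 1642 CPM in EPR fl/fl (lowest, median and highest), at 2934 CPM in EPR cKO 1 and at 456 to 1367 CPM in the other 5 EPR cKO libraries, of which 4 lay below every control. In the comparison with all libraries 0 of 7 of these markers were called, and their part in the lower calls was not tested.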

How the data were processed

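Total RNA of proximal colon, from 6 mice per genotype, had been made into strand-specific libraries after depletion of ribosomal RNA and sequenced on a NovaSeq. The authors trimmed reads with Trimmomatic, aligned them to mm10 with STAR 2.5.3a and counted them per gene with featureCounts, and deposited raw counts, neither normalized nor filtered. The strand setting and the treatment of multimapping reads are not given in the sources used here. Groups came from the sample titles, and 0 count columns were left without a sample. The smallest chi-square per gene between replicates of the same group was 24.7, so no library was a repeat of another in its group. Libraries of different groups were not compared in this way.

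Genes with at least 1 CPM in at least 4 libraries were kept (15952 of 36694 with a count). The edgeR 4.0.16 quasi-likelihood test (R 4.3.3, TMM scaling, no covariate) compared the groups, with Benjamini-Hochberg adjustment over all tested genes. The SE was the absolute log2 fold change divided by the square root of F, and intervals are at 95%. Log2 CPM used a prior count of 2 and ratios within a library one of 0.5. With all libraries, exact tests were two-sided over the 924 assignments of 6 of 12 libraries, with a smallest p of 0.00216. The test was tested on simulated counts beforehand, with 200 genes changed and the dispersions of these data. It recovered 6% of genes changed by 0.5 on the log2 scale, 68.5% of those changed by 1 and 94% of those changed by 2. Changes near 0.5 or smaller were thus seldom called, and a gene not called may still have changed by that much if its interval reaches it. In the reported fit the intervals of Papss1, Slc35b2, Slc35b3 and Slc26a2 do not reach 0.5 in either direction.

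Members and gene lists were chosen with earlier results of these data known. Named genes were the members, EPR, Muc2, Tff3, called genes of each wider list (otherwise the 2 with the smallest adjusted p) and the 3 nearest profiles of each called member; other genes, Gal3st2b and Gal3st2c among them, were named after their values were seen. The marker lists not described in the report gave 0 calls: colonocyte (0 of 10, median 0.40), endothelium (0 of 6, -0.35), B cell (0 of 2, -0.08) and macrophage (0 of 6, -0.33). Alternatives were DESeq2 size factors, total counts, no filter, filterByExpr, limma-voom (limma 3.58.1), the Wald test of DESeq2 1.42.0, the replicate number as a block, a composition covariate and each library left out. The sum of the Gal3st2 copies and the covariate without EPR cKO 1 were added after seeing the data.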

Additional observations from a re-analysis of the deposited data

Results flagged for a closer look

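Of 50 sets of 6 values, 6 held a value whose gap to the nearest other exceeded Dixon's critical value as a share of the range, and chance gives about 2.5. Slc35b2 was at 27.0 CPM in EPR cKO 1, where the next library was at 39.9 CPM. The ratio of Papss2 to Papss1 was 2.835 on the log2 scale in EPR fl/fl 2, and the next was 2.428. Sult1b1 stood out in both groups, low at 105 CPM in EPR fl/fl 3 (next 135) and high at 236 CPM in EPR cKO 5 (next 177). Muc2 was at 1071 CPM in EPR cKO 5 against 1731 CPM in the next library. EPR itself was at 0.423 CPM in EPR cKO 2, against 0.134 CPM in the next, far under the 21.2 CPM of the lowest control.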

How the results depend on the processing

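Chst4 and Gal3st2 were called lower in all 12 models that left out 1 library (log2 fold changes of -0.76 to -0.63 and of -1.36 to -1.10), and under DESeq2 size factors, total counts, no filter, filterByExpr, DESeq2, limma-voom and the replicate block. The number of members called lower was 1 with the composition covariate, 1 with the Gal3st2 copies summed and 0 with the covariate without EPR cKO 1, where Muc2 (-1.67) and Tff3 (-0.96) were not called either. With the covariate Papss1 turned to -0.11, and with the covariate and without EPR cKO 1 to -0.0059, Papss2 to -0.68 and Slc26a1 to -2.69; none of these values passed the test under any model. The log2 difference in the ratio of Chst4 to Chst5 turned to -0.15 with a prior count of 2, and without single libraries it was -0.12 to 0.96, with -0.10 without EPR cKO 4. That of Slc26a1 to Slc26a2 was -0.11 to 0.86, the lowest without EPR fl/fl 3. The number of wider genes called lower was 0 with no filter, with the replicate block and with the covariate (with and without EPR cKO 1), 2 with DESeq2, and 0 to 11 without single libraries. The number called higher was 4 with DESeq2 and 0 to 6 without single libraries. The difference in composition score was 0.97 to 1.70. The cause was not tested.

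Over all genes 64% of calls were lower, and 86.4% with total counts (247 lower and 39 higher), 81.8% with no filter (243 and 54) and 51.8% with DESeq2 (473 and 440). No pairing of the animals by replicate number was seen. The correlations of same-numbered libraries were -0.242 to 0.34, and only numbers 1 and 6 correlated best with their own partner. Such correlations cannot exclude a pairing. As a block the replicate numbers left 178 genes lower and 67 higher, with Chst4 at -0.73 (edgeR adjusted p = 0.0253) and Gal3st2 at -1.26 (edgeR adjusted p = 0.0264). Low counts limit Chst5, with 0 to 14 per library, and the intervals of the members not called are given with their values.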
